A study of Mus musculus with 12 samples.

Results

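The T cell receptor of a conventional T cell is a pair of alpha and beta chains, and the part of each chain that meets the antigen is assembled from gene segments. The 130 genes described here are the variable (V) segments of these chains in the mouse, 108 Trav segments of the alpha locus on chromosome 14 and 22 Trbv segments of the beta locus on chromosome 6, out of 35907 genes counted. They were taken as every GENCODE mouse M21 gene of the functional T cell receptor V biotype whose symbol starts with Trav or Trbv, without use of any expression value. The annotation holds 144 genes of that biotype, the rest of them in the gamma and delta loci, and a further 33 Trav and Trbv pseudogenes that were not members. All 130 members reached 3 counts in at least 1 library, and 19 Trbv and 23 Trav segments did so in every library.

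RNA came from 12 libraries in 4 groups of 3, with a replicate number in the labels of each. WT donors were C57BL/6-background mice of the B6-Ly5 (CD45.1+) strain with major histocompatibility type H2Kb, and TCF-1 cKO donors carried Tcf7 flox/flox with CD4cre, so that Cre was driven by the Cd4 promoter. Donors were 8 to 12 weeks old and sex-matched. Pre-Tx libraries were made from T cells sorted from the spleen of each donor genotype. Post-Tx libraries were made from donor T cells sorted by H2Kb from the spleen of female BALB/c recipients (H2Kd) on day 7, after lethal irradiation and transfer of CD3 T cells of either genotype, and for these recipients the methods add marrow from WT mice from which T cells had been removed. A CD4cre control without the floxed gene, although used elsewhere in the study, was not among these libraries, and the genotypes therefore also differ in Cre and in the Ly5 strain background. Nothing in the sources says whether a library pooled several mice, so the p values here measure the spread between these libraries.

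Each T cell clone joins V segments to joining segments, with a diversity segment between them in the beta chain. All of its progeny carry the result. The mRNA of a population of T cells therefore holds each V segment roughly in proportion to the cells that use it and to the receptor mRNA in each of those cells, and in bulk RNA fewer cells of a type and less RNA per cell cannot be told apart. In the mouse the beta chain is assembled before the CD4+CD8+ thymocyte stage and the alpha chain during it, beginning with V segments near the joining segments and moving on to more distant ones. Some beta chain V segments are known by the older names of their proteins, such as V beta 3 for Trbv26, V beta 5 for Trbv12-1 and Trbv12-2, V beta 11 for Trbv16 and V beta 12 for Trbv15. Chains of these 5 segments bind superantigens of endogenous mammary tumour virus proviruses, many of them together with the class II molecule I-E. T cells that carry them are deleted in BALB/c mice and are in part preserved in C57BL/6 mice, which do not express I-E.

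The germline ends of the V segments on which the results turn show how far reads can tell them apart. They are the last 60 bases of each GENCODE M21 transcript on GRCm38, with capitals from the codon of the conserved cysteine to the end of the segment, where joining takes place. Trbv26 lies at chr6:41227505-41227993, Trbv15 at chr6:41141188-41141658, Trbv12-1 at chr6:41113550-41114067, Trbv12-2 at chr6:41118851-41119364 and Trbv23 at chr6:41216073-41216526, and all are on the plus strand. Of the alpha segments, Trav17 lies at chr14:53806639-53807115, Trav11 at chr14:53519303-53519859, Trav11d at chr14:52824357-52824912, Trav14d-1 at chr14:52855614-52856166 and Trav14n-1 at chr14:53166626-53167178, also on the plus strand.
Trbv26: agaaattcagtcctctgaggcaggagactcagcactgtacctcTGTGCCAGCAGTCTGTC
Trbv15: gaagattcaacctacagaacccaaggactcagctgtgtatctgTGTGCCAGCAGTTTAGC
Trbv12-1: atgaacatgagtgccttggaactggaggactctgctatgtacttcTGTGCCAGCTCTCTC
Trbv12-2: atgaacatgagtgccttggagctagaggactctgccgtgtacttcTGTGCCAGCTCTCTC
Trbv23: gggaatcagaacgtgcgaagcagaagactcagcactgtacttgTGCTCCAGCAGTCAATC
Trav17: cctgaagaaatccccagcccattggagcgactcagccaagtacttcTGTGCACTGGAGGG
Trav11: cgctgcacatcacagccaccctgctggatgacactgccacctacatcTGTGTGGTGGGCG
Trav11d: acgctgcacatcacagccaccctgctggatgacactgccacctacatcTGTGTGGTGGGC
Trav14d-1: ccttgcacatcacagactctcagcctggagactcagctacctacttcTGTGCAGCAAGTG
Trav14n-1: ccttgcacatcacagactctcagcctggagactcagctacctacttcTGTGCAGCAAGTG
Trav11 and Trav11d, both of the V alpha 14 family of invariant natural killer T cells, share this stretch apart from where it ends, and Trav14d-1 and Trav14n-1 are identical in it. Over the last 250 bases, 34 of the 108 Trav segments had an identical copy elsewhere in the locus and 70 had one within 5 edits, with a median identity to the nearest other segment of 99.2%. None of the 22 Trbv segments had a copy within 5 edits, and their median nearest identity was 66.0%, with a highest value of 91.2%. Counts of single Trav segments were thus often shares that the authors' pseudoalignment divided between near-identical copies. Trbv segments were separable apart from some reads divided within the Trbv13 and Trbv12 families. In WT Pre-Tx replicate 1, for example, Trbv13-1, Trbv13-2 and Trbv13-3 held 191.45, 292.94 and 204.6 estimated counts.

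The total count per library ranged from 17103415 to 49486745. Labels call every library CD4 T cells, but for Pre-Tx the design text names CD8 T cells, and for Post-Tx the methods name CD8 and the design text both. The 3 WT Pre-Tx libraries held 110 to 189 counts of Cd8a per 100 of Cd4 and the 3 TCF-1 cKO Pre-Tx libraries 94.3 to 109, against 0.0896 to 0.639 in WT Post-Tx, against 1.20 to 1.89 in TCF-1 cKO Post-Tx. A sum of 10 B cell markers reached 20048 ± 1024 CPM (counts scaled to a common library total; SD, n = 3) in WT Pre-Tx, against 23416 ± 797 CPM in TCF-1 cKO Pre-Tx, with 1093 ± 50.7 and 942 ± 282 CPM in the Post-Tx groups of the same genotypes. Olfactory receptor genes, a class with no role in T cells, summed to 2532 to 7011 CPM in WT Pre-Tx and 880 to 1550 CPM in TCF-1 cKO Pre-Tx. At day 7 the sums were 1088 to 3136 CPM in WT and 4484 to 12030 CPM in TCF-1 cKO. This background thus differed between the genotypes without overlap at both stages, in opposite directions. Its part in the V segment counts, shares, evenness and positions below was not tested. Tcf7, the gene of TCF-1, was at 112 to 197 CPM in WT Pre-Tx, 136 to 179 CPM in TCF-1 cKO Pre-Tx, 145 to 171 CPM in WT Post-Tx, against 109 to 146 CPM in TCF-1 cKO Post-Tx. Neither stage passed the test for Tcf7 (adjusted p = 0.924 and 0.0669, edgeR's quasi-likelihood test with Benjamini-Hochberg adjustment), and since these counts include exons outside a floxed stretch they do not check the deletion. The genotypes below are assigned by the labels, which read TCF-7 cKO for the group that the study and this text name TCF-1 cKO.

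V segment mRNA was lower in both TCF-1 cKO groups than in the WT group of the same stage, for the alpha and the beta locus alike, and so were the constant regions to which the segments are spliced. All Trbv segments together made up 181.6 ± 29.4 CPM in WT Pre-Tx, against 80.4 ± 11.4 CPM in TCF-1 cKO Pre-Tx, then 389.7 ± 59.6 CPM in WT Post-Tx, against 289.4 ± 24.8 CPM in TCF-1 cKO Post-Tx (SD, n = 3 here and for all group means that follow). Trav segments summed to 102.7 ± 1.34, 42.0 ± 2.15, 258.3 ± 25.1 and 154.1 ± 17.2 CPM in the same order. The genotypes did not overlap at either stage for either locus, and every Post-Tx library lay above the Pre-Tx libraries of its genotype. Set against the constant regions the Trbv differences between genotypes lay within the spread of the libraries. Trbv segments held 16.8 ± 1.13, 16.2 ± 0.741, 15.8 ± 0.129 and 15.8 ± 0.889 counts per 100 counts of Trbc1 and Trbc2, and the difference of mean log2 ratios with transplant was −0.09 in WT and −0.03 in TCF-1 cKO. Trav segments held 45.02 ± 3.81 counts per 100 counts of Trac in WT Pre-Tx, against 38.1 ± 3.05 in TCF-1 cKO Pre-Tx, without overlap, and 38.4 ± 6.18 against 39.6 ± 6.34 in the Post-Tx groups, with overlap. Trac, the alpha constant region, fell by 1.08 on the log2 scale before transplant and by 1.17 after it in TCF-1 cKO (adjusted p = 0.0117 and 0.0183, edgeR's quasi-likelihood test with Benjamini-Hochberg adjustment). Markers of other cells moved with genotype too. Before transplant all 5 natural killer cell markers lay higher in TCF-1 cKO than in WT without overlap, with a summed level of 199.5 to 275.1 CPM against 54.4 to 94.8 CPM. Of 10 B cell markers, 6 were higher without overlap, among them Ms4a1 and Pax5, and Cd79a was lower, with sums of 22496 to 23912 against 18897 to 20859 CPM. Of 6 myeloid markers, 3 were higher before transplant (sums of 2811 to 3021 against 2712 to 3887 CPM) and 4 after it, among them Csf1r and Adgre1 (958 to 1641 against 689 to 836 CPM). At day 7, 4 B cell markers and 2 of 3 erythroid markers were higher as well, while 0 of 5 natural killer cell markers were higher and Klrb1c was lower. Of 6 gamma delta T cell markers all overlapped before transplant, and at day 7 Trdc was higher and Tcrg-C2 lower. None of the listed markers was at 0 in all libraries of a stage. The part of these cells, and of the Cd8a ratio, in the V segment totals was not tested.

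Among single segments, levels relative to all RNA passed the test in few cases. Before transplant 1 of 20 tested Trbv segments and 4 of 47 tested Trav segments were lower in TCF-1 cKO and 0 were higher, beside 14.2% of all 17021 genes tested that were called in either direction. At an unadjusted p under 0.05 there were 11 Trbv and 18 Trav, beside 5708 of all 17021 genes. DESeq2 called 10 Trbv and 6 Trav lower and 0 higher. The median log2 fold changes were −1.34 for Trbv and −1.35 for Trav, against −0.11 over all genes. Trbv1, which encodes V beta 2, was the Trbv segment called, with a log2 fold change of −1.41 ± 0.43 (SE) and an adjusted p of 0.0475 in edgeR's quasi-likelihood test with Benjamini-Hochberg adjustment. Without any 1 of the 6 libraries that call was lost, with adjusted p from 0.0682 to 0.143. Without WT Pre-Tx replicate 1 edgeR called 0 segments, with 7 Trbv and 14 Trav at an unadjusted p under 0.05. The Trav segments called were Trav13d-1, Trav8n-2, Trav13d-2 and Trav13n-2, of which 3 have near-identical copies. All of them passed the filter on low counts only through WT, the group where they were high. Over the TCF-1 cKO Pre-Tx group they held 7.63, 1.21, 6.36 and 6.36 counts, beside 161, 51.7, 66.9 and 66.9 in WT Pre-Tx. Trav13d-2 and Trav13n-2 are identical copies with the same estimated counts and are no separate results. After transplant 5 of 21 tested Trbv segments (Trbv13-2, Trbv14, Trbv19, Trbv26 and Trbv31) and 3 of 83 tested Trav segments (Trav14d-3-dv8, Trav7-4 and Trav14-2) were lower and again 0 were higher, beside 6.65% of 19287 genes. There were 9 Trbv and 24 Trav at an unadjusted p under 0.05, beside 6184 of all 19287 genes. DESeq2 called 9 and 15 lower and 0 higher. The medians were −1.15 for Trbv and −1.36 for Trav, against 0.09 over all genes. Without WT Post-Tx replicate 1 edgeR called 0 segments, with 13 Trav and 8 Trbv at an unadjusted p under 0.05, and without TCF-1 cKO Post-Tx replicate 2 it called 0, with 20 Trav and 9 Trbv. Counts over all genes were not kept for DESeq2 or for fits with 1 library left out. The share of a segment within its locus, given from here on, does not move with the level of the whole locus.

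Before transplant the beta repertoires of the genotypes were close to each other. Trbv1, Trbv16 and Trbv13-2 held large shares in all 6 libraries, and no Trbv share passed the test. Trbv1 held 11.8%, 12.5% and 12.8% of all Trbv counts in WT Pre-Tx replicates 1 to 3 and 13.5%, 8.72% and 9.69% in TCF-1 cKO Pre-Tx. Trbv16 (V beta 11) held 10.5%, 9.77% and 12.3% in WT and 12.6%, 8.72% and 11.6% in TCF-1 cKO. The genotypes overlapped for both segments, as they did for Trbv13-2 of the V beta 8 family, which held 9.13% to 10.2% in WT and 9.89% to 11.2% in TCF-1 cKO.
Of 20 Trbv segments tested for a share that differed between the genotypes before transplant, 0 passed edgeR's quasi-likelihood test with Benjamini-Hochberg adjustment, 0 had an unadjusted p under 0.05, and DESeq2 called 0, beside 14.1% of all 17021 genes called by edgeR in that comparison. Among all genes 5690 had an unadjusted p under 0.05. The largest segment of a library was Trbv1 in all 3 WT Pre-Tx libraries and in TCF-1 cKO Pre-Tx replicate 1, Trbv12-2 in replicate 2 and Trbv16 in replicate 3. Bray-Curtis distance, the part of 2 compositions that is not shared, was 6.14% to 10.01% between WT Pre-Tx libraries, 12.4% to 17.7% between TCF-1 cKO Pre-Tx libraries and 11.3% to 15.8% between the genotypes, so that the genotypes lay no further apart than the TCF-1 cKO libraries did from each other.

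**Figure D1:**
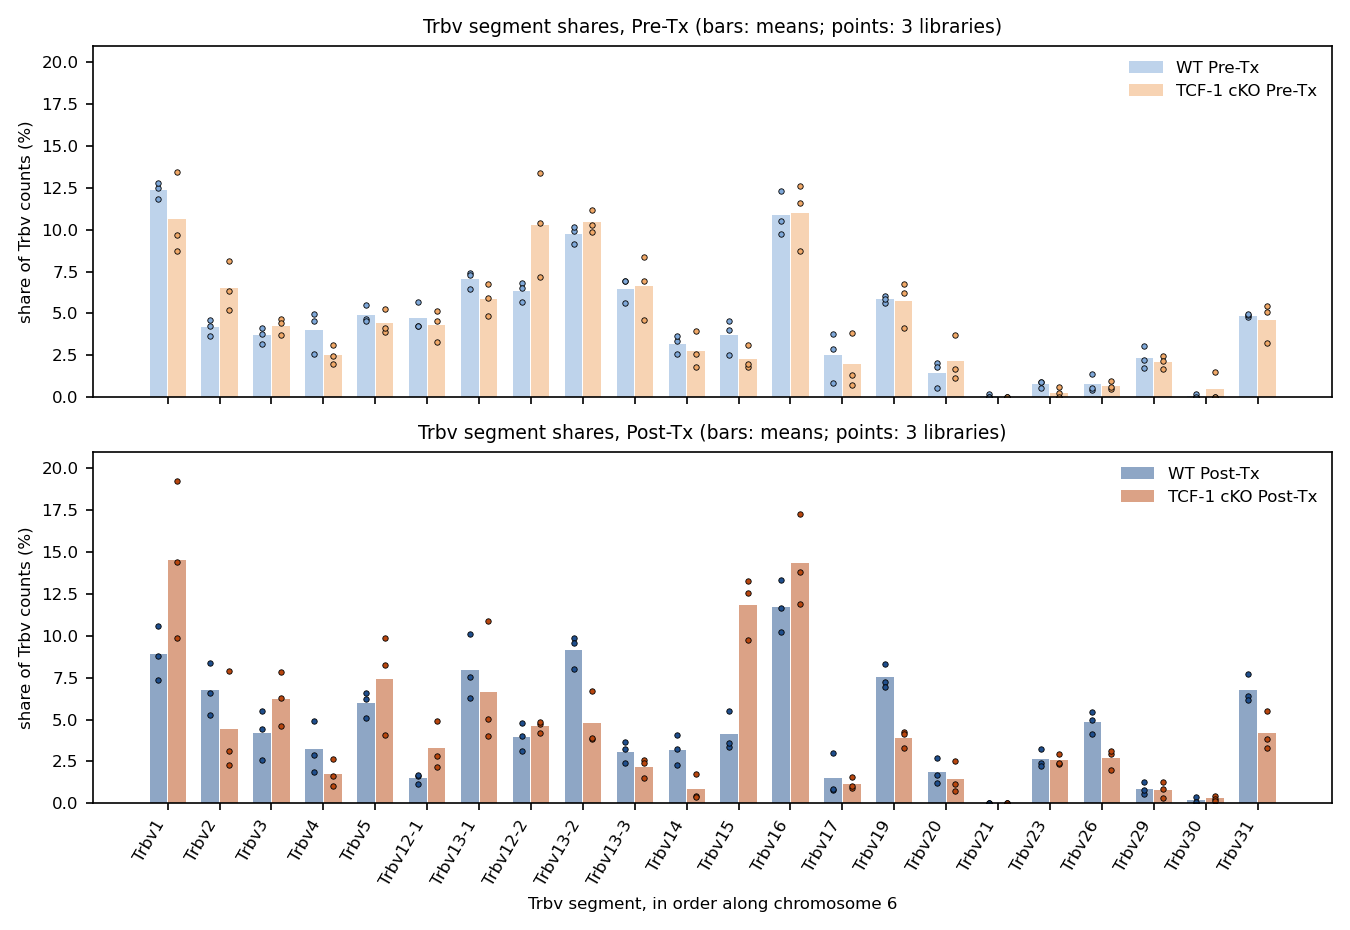
Share of all Trbv counts (%) held by each of the 22 Trbv segments in locus order, in the Pre-Tx panel and the Post-Tx panel, with bars for group means and points for the 3 libraries of each group. Before transplant the bars of the genotypes overlap for the leading segments, and after transplant Trbv15 stands at 9.74% to 13.3% in TCF-1 cKO and at 3.37% to 5.51% in WT.

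At day 7 in the BALB/c recipient the beta repertoire of WT donor T cells differed from that of the donor spleen at Trbv26 and Trbv12-1. Trbv26, the V beta 3 segment, held 0.406%, 0.547% and 1.38% of Trbv counts in WT Pre-Tx, against 4.13%, 5.47% and 4.96% in WT Post-Tx. All 3 Post-Tx values lay above all 3 Pre-Tx values. The log2 change of the share was 2.65 ± 0.57 (SE), a rise of 6.26 times, with an adjusted p of 0.00310 in edgeR's quasi-likelihood test with Benjamini-Hochberg adjustment, and it passed without any 1 of the 6 libraries, at a log2 change of 2.34 to 3.34. Behind these shares were 12, 23 and 39 counts before transplant and 905, 482 and 797 after it. Trbv26 was thus scarce in the donor spleen, where 3 counts made up 0.0713% to 0.106% of all Trbv counts of a WT Pre-Tx library.

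Trbv12-1, of the V beta 5 pair, moved the other way in WT. Its share was 4.26%, 4.25% and 5.70% before transplant and 1.65%, 1.12% and 1.67% after it. The groups did not overlap, and the share fell by 1.68 ± 0.51 on the log2 scale (adjusted p = 0.0259, edgeR's quasi-likelihood test with Benjamini-Hochberg adjustment). That call was lost without WT Pre-Tx replicate 3 or without any 1 of the 3 WT Post-Tx libraries (adjusted p = 0.0734 to 0.0815). The call was also lost with no filter on low counts, where 0 Trbv segments were called lower. Its neighbour Trbv12-2, which shares the capitals printed above, stood at 6.83%, 6.51% and 5.67% before and 3.13%, 4.79% and 4.03% after, without overlap and without passing the test (log2 −0.67 ± 0.40, adjusted p = 0.236). With Trbv12-1 and Trbv12-2 summed as a family the share went from 11.1% to 5.47% in the group means and fell by 1.02 ± 0.35 on the log2 scale (adjusted p = 0.0436 in the same edgeR test).

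These were 1 higher and 1 lower of 21 tested Trbv segments in WT, beside 21.9% of all 21434 genes called in that comparison. A further 3 segments had an unadjusted p under 0.05, which made 5 of the 21, beside 7735 of all 21434 genes. Trbv13-3, of the V beta 8 family, stood at 6.92%, 5.60% and 6.93% before and 3.25%, 2.39% and 3.63% after (log2 −1.07 ± 0.45, adjusted p = 0.0962, edgeR's quasi-likelihood test with Benjamini-Hochberg adjustment). Trbv29 (V beta 7) stood at 2.35% in the mean before and 0.856% after, and Trbv23 at 0.523% to 0.885% before and 2.25% to 3.21% after. Trbv1 stood at 12.4% in the mean before and 8.91% after, without overlap, and did not pass the test. The means before and after were closer for Trbv16 at 10.9% and 11.7%, Trbv13-2 at 9.74% and 9.14%, and Trbv15 at 3.70% and 4.16%.

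In TCF-1 cKO, Bray-Curtis distances between Pre-Tx and Post-Tx beta repertoires were 24.0% to 36.5%, beside 16.9% to 20.2% in WT. Distances within a group were also larger in TCF-1 cKO, at 12.4% to 17.7% before and 16.3% to 22.6% after transplant. In WT they were 6.14% to 10.01% and 12.1% to 14.4%. Trbv totals before transplant were 1732 to 2023 counts in TCF-1 cKO and 2824 to 4208 in WT. Trbv15, the V beta 12 segment, gained more share than any other Trbv segment. Trbv15 held 1.79%, 3.12% and 1.98% of Trbv counts in TCF-1 cKO Pre-Tx, against 12.6%, 13.3% and 9.74% in TCF-1 cKO Post-Tx, against 2.54%, 4.56% and 4.001% in WT Pre-Tx, against 5.51%, 3.37% and 3.59% in WT Post-Tx. The 3 TCF-1 cKO Post-Tx libraries lay above the other 9. The log2 change with transplant was 2.37 ± 0.44 in TCF-1 cKO (adjusted p = 0.000946) and 0.17 ± 0.41 in WT (adjusted p = 0.784), both from edgeR's quasi-likelihood test with Benjamini-Hochberg adjustment. The difference between the genotypes in this change, tested as an interaction, was 2.20 ± 0.59 (adjusted p = 0.0145 in the same test), and it passed without any 1 of the 12 libraries, at 2.02 to 2.49. Counts behind the shares were 32, 54 and 40 in TCF-1 cKO Pre-Tx, against 608, 862 and 576 in TCF-1 cKO Post-Tx.

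Trbv26 rose in TCF-1 cKO as well. Its share was 0.503%, 0.577% and 0.989% before transplant and 1.99%, 2.96% and 3.14% after it, without overlap, and the log2 change was 1.96 ± 0.58 (adjusted p = 0.0208, edgeR's quasi-likelihood test with Benjamini-Hochberg adjustment). Leaving out TCF-1 cKO Pre-Tx replicate 1 or 2, or Post-Tx replicate 2 or 3, took the adjusted p to between 0.0579 and 0.0720. The interaction for Trbv26 was −0.69 ± 0.79 on the log2 scale and was not past the threshold (adjusted p = 0.514 in the edgeR test), so a difference in its rise between the genotypes was not shown.

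Trbv23 was the other segment that rose in TCF-1 cKO. It held 0.223%, 0% and 0.593% before transplant, from 4, 0 and 12 counts, and 2.36%, 2.39% and 2.96% after it. The groups did not overlap, and the log2 change was 3.20 ± 0.81 (adjusted p = 0.00934, edgeR's quasi-likelihood test with Benjamini-Hochberg adjustment), which passed without any 1 of the 6 libraries. In WT the corresponding change was 1.78 ± 0.73 (adjusted p = 0.0912 in the same test).

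The Trbv segments whose shares fell in TCF-1 cKO were Trbv13-3, Trbv13-2 and Trbv12-2. Trbv13-3 stood at 8.36%, 6.95% and 4.60% before transplant and 1.53%, 2.61% and 2.39% after it, and fell by 1.61 ± 0.46 on the log2 scale (adjusted p = 0.0179, edgeR's quasi-likelihood test with Benjamini-Hochberg adjustment). Trbv13-2 went from 10.3%, 11.2% and 9.89% to 3.83%, 3.92% and 6.71% and fell by 1.11 ± 0.34 (adjusted p = 0.0266). Trbv12-2 went from 7.15%, 13.4% and 10.4% to 4.20%, 4.75% and 4.83% and fell by 1.17 ± 0.41 (adjusted p = 0.0429). For none of these segments did the Post-Tx libraries overlap the Pre-Tx libraries of this genotype. The Trbv13-3 call was lost without TCF-1 cKO Pre-Tx replicate 1 or Post-Tx replicate 1 (adjusted p = 0.0623 and 0.0643). The Trbv13-2 call was lost without any 1 of the 3 Pre-Tx libraries or without Post-Tx replicate 1 or 2, at 0.0548 to 0.102, and the Trbv12-2 call without Pre-Tx replicate 2 or 3 or any 1 of the 3 Post-Tx libraries, at 0.0917 to 0.141. Trbv12-2 was also not past the threshold with the replicate number as a block (adjusted p = 0.0680). With no filter on low counts, 1 Trbv segment in all was called lower. In all, 3 of 21 tested Trbv segments were higher and 3 lower in TCF-1 cKO, beside 26.6% of all 21434 genes called there. A test of the interaction called 1 of 21, Trbv15, beside 28.6% of all genes.

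**Figure D2:**
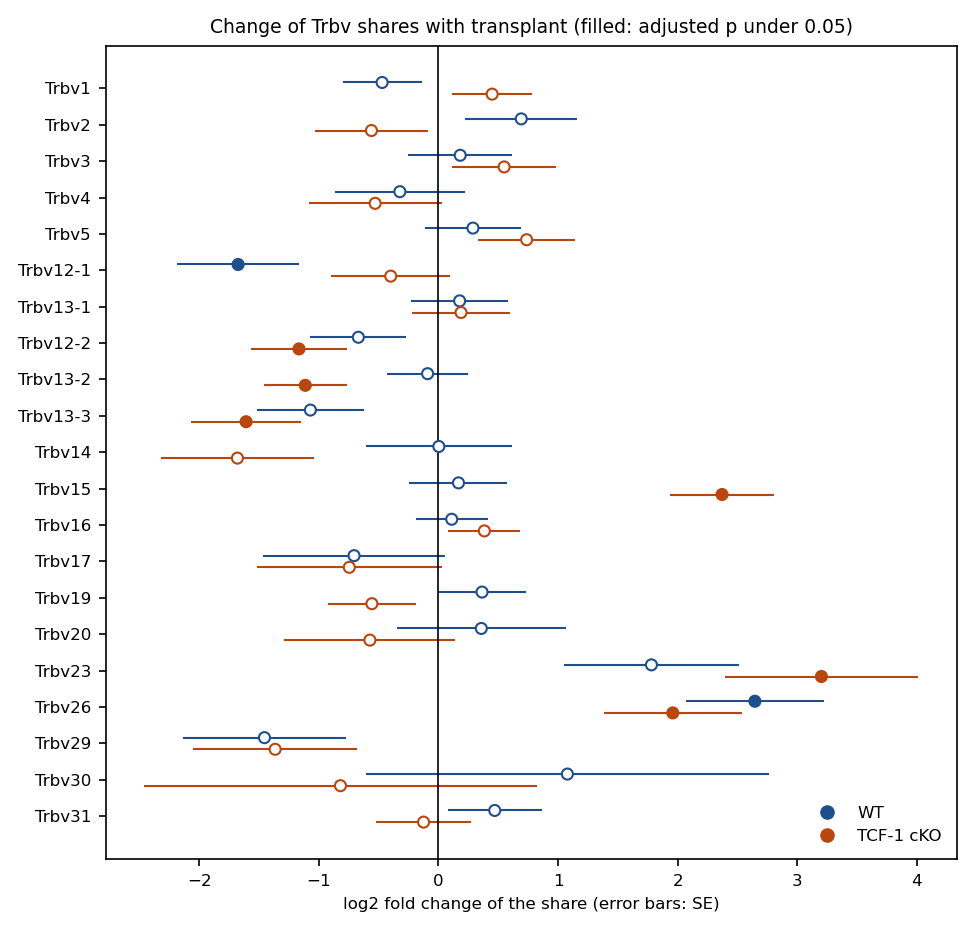
Log2 change of the share from Pre-Tx to Post-Tx for the 21 tested Trbv segments in WT and in TCF-1 cKO, with bars of 1 SE, and filled points for an adjusted p under 0.05 in edgeR's quasi-likelihood test. Trbv15 lies at 2.37 in TCF-1 cKO and at 0.17 in WT, while Trbv26 lies above 0 in both, at 1.96 and 2.65.

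Compared directly at day 7, the genotypes differed at Trbv15. The log2 difference of its share, TCF-1 cKO against WT, was 1.51 ± 0.34 (adjusted p = 0.0243, edgeR's quasi-likelihood test with Benjamini-Hochberg adjustment), from 11.9% ± 1.88 against 4.16% ± 1.18 in the means. Without WT Post-Tx replicate 1 or 3 or TCF-1 cKO Post-Tx replicate 2 the adjusted p was 0.0593, 0.0649 and 0.151. It was the 1 Trbv segment called of 21 tested, beside 6.61% of all 19287 genes called in that comparison. At an unadjusted p under 0.05 there were 7 of the 21, beside 6163 of the 19287 genes. Among the rest, Trbv14 stood at 4.06%, 3.27% and 2.28% in WT Post-Tx and at 0.434%, 0.385% and 1.77% in TCF-1 cKO Post-Tx, without overlap (log2 −1.88 ± 0.61, adjusted p = 0.0620 in the same test). Trbv13-2 stood at 9.85%, 9.58% and 8.004% in WT and 3.83%, 3.92% and 6.71% in TCF-1 cKO, also without overlap (log2 −0.92 ± 0.33, adjusted p = 0.0790). Trbv19 (V beta 6) stood at 7.51% ± 0.729 in WT and 3.89% ± 0.526 in TCF-1 cKO (log2 −0.95 ± 0.33, adjusted p = 0.0721). DESeq2 called Trbv14, Trbv13-2 and Trbv19 lower and Trbv15 higher.

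**Figure D3:**
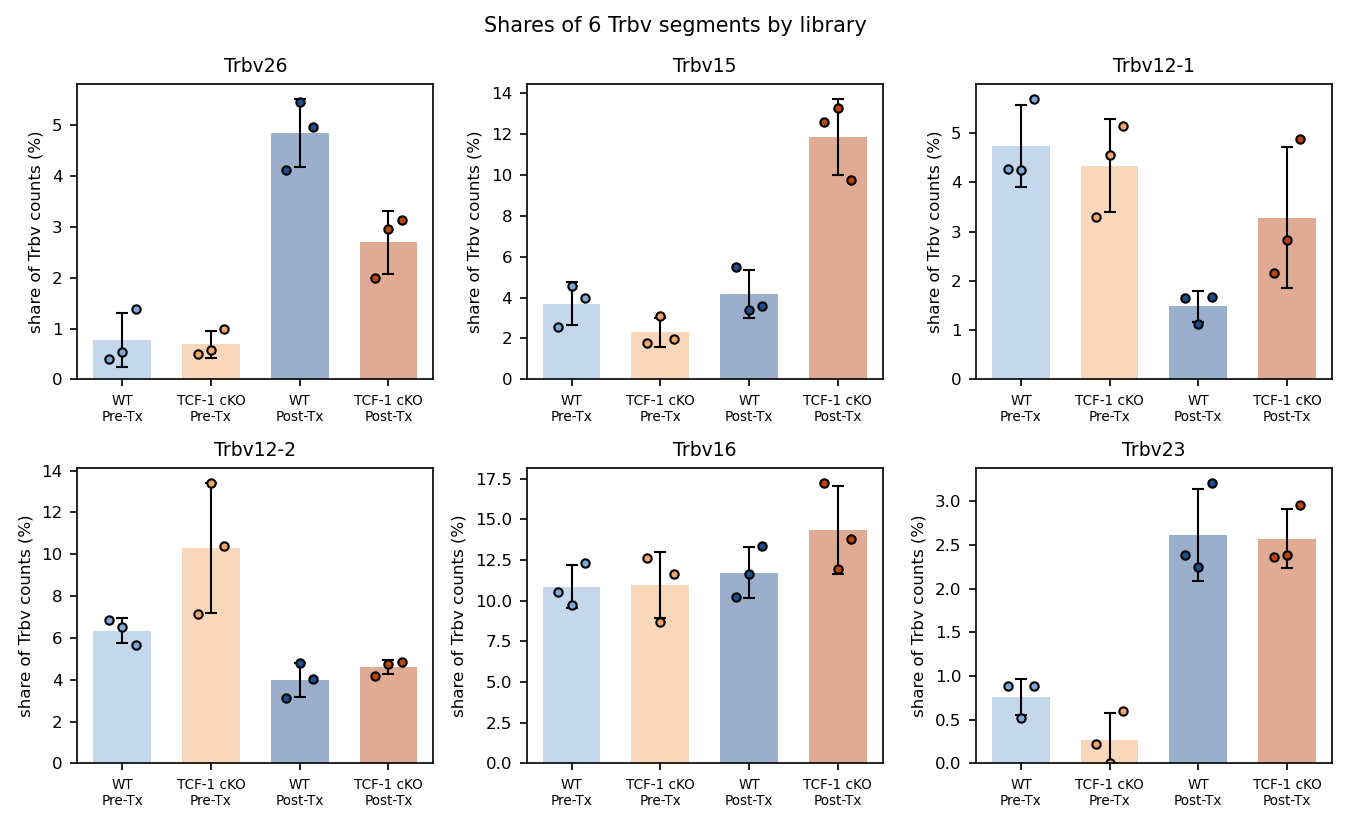
Shares of all Trbv counts (%) of Trbv26, Trbv15, Trbv12-1, Trbv12-2, Trbv16 and Trbv23 in the 4 groups, with a point for each library and bars for mean and SD (n = 3). Trbv26 and Trbv23 lie higher in both Post-Tx groups than in the Pre-Tx groups, and Trbv15 lies high in TCF-1 cKO Post-Tx alone.

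Taken by their known ligands, the 5 Trbv segments linked to superantigens did not move as a block. Trbv26 rose in both genotypes and Trbv15 in TCF-1 cKO, Trbv12-1 fell in WT and Trbv12-2 in TCF-1 cKO, and Trbv16 passed in neither, with log2 changes of 0.11 in WT (adjusted p = 0.806) and 0.38 in TCF-1 cKO (adjusted p = 0.335, edgeR's quasi-likelihood test with Benjamini-Hochberg adjustment). Together they held 24.6%, 25.6% and 29.1% of Trbv counts in WT Pre-Tx, 24.6%, 26.4% and 27.6% in WT Post-Tx, against 25.4%, 30.4% and 30.1% before transplant in TCF-1 cKO. In TCF-1 cKO Post-Tx they held 38.2%, 35.7% and 36.4%. These 3 libraries lay above the other 9, but without Trbv15 the sum was 25.6%, 22.5% and 26.7%, beside 23.6%, 27.3% and 28.1% in TCF-1 cKO Pre-Tx, with overlap. Of the 5, 1 rose and 1 fell in WT with a median log2 change of 0.11, and 2 rose and 1 fell in TCF-1 cKO with a median of 0.38, beside medians over all genes of −0.42 and 0.35. Genes other than the V segments were fitted on level and not on share, so these medians are not on the same scale.

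A comparison set of 5 segments not tied to the BALB/c proviruses, Trbv19, Trbv13-1, Trbv13-2, Trbv13-3 and Trbv31 (V beta 14), held 34.002% ± 0.268 in WT Pre-Tx, 34.5% ± 3.34 in WT Post-Tx, against 33.2% ± 2.26 before transplant in TCF-1 cKO. In TCF-1 cKO Post-Tx it held 19.1%, 24.0% and 22.1%, below every library of the other groups. None of these 5 passed in WT, where their median log2 change was 0.18, and 2 fell in TCF-1 cKO, where it was −0.56. Trbv13-1 and Trbv31 did not pass in any share comparison, with group means of 5.83% to 7.98% and 4.21% to 6.75%. Sums are given as a description, because the lists were drawn up with results of these libraries known.

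Other Trbv segments of at least 5% in a group mean were Trbv2, Trbv3 and Trbv5. Trbv2 (V beta 4) stood at 4.17% ± 0.496, 6.54% ± 1.46, 6.74% ± 1.54 and 4.44% ± 3.04 in WT Pre-Tx, TCF-1 cKO Pre-Tx, WT Post-Tx and TCF-1 cKO Post-Tx. Trbv3 stood at 3.69%, 4.26%, 4.19% and 6.24% in the means of the same groups, and Trbv5 (V beta 1) at 4.90%, 4.44%, 5.98% and 7.40%. None of these 3 passed in a share comparison, and the spread of Trbv2 and Trbv5 over TCF-1 cKO Post-Tx replicates (SD 3.04 and 2.98 percentage points) was as wide as the differences between their group means. Trbv1 stood at 19.3%, 14.4% and 9.89% in TCF-1 cKO Post-Tx, so that the largest single segment of this group differed between its libraries.

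The sort and the cell types moved with the step from Pre-Tx to Post-Tx. Cd8a stood at 94.3 to 189 counts per 100 of Cd4 in the 6 Pre-Tx libraries and at 0.0896 to 1.89 in the 6 Post-Tx libraries, and CD4 and CD8 T cells are known to use some V segments unequally. Day, host and the CD4 to CD8 mix cannot be told apart in this comparison. Between the genotypes at day 7 the ratio differed less in absolute terms, at 0.0896 to 0.639 against 1.20 to 1.89, and its part in the difference of Trbv15 was not tested.

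Evenness describes how equally a locus is spread over its segments. It was computed as Shannon entropy divided by its maximum, so that 1 means equal shares. For the beta locus it was 0.907 ± 0.00756 in WT Pre-Tx, 0.891 ± 0.00445 in TCF-1 cKO Pre-Tx, 0.910 ± 0.0106 in WT Post-Tx, against 0.864 ± 0.0391 in TCF-1 cKO Post-Tx. The wide spread of the last group came with 1 library, replicate 3, at 0.906 beside 0.828 and 0.858 in the other two. As the effective number of equally used segments (inverse Simpson index), the means were 14.4, 13.5, 14.6 and 11.6. The 5 largest Trbv segments of a library held 46.0% to 48.5% of the counts in WT Pre-Tx, 48.3% to 52.8% in TCF-1 cKO Pre-Tx, 44.6% to 48.4% in WT Post-Tx, against 49.6% to 62.5% in TCF-1 cKO Post-Tx. Evenness of 3 libraries against 3 cannot give an exact permutation p below 0.1, and these values are a description.

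The alpha locus is read with more caution, since it has fewer counts spread over more and more similar segments. Its total was 1748 to 1993 counts in WT Pre-Tx, 858 to 1045 in TCF-1 cKO Pre-Tx, 6218 to 13730 in WT Post-Tx, against 2446 to 3579 in TCF-1 cKO Post-Tx. Of the 108 segments, 76 to 91 reached 3 counts in a WT Pre-Tx library, 49 to 62 in a TCF-1 cKO Pre-Tx library, 98 to 103 in a WT Post-Tx library and 80 to 83 in a TCF-1 cKO Post-Tx library. Bray-Curtis distances within a group ranged from 20.05% to 45.1%, beside 6.14% to 22.6% for the beta locus, and were 41.7% to 58.0% between the genotypes before transplant.

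Before transplant the alpha locus differed between the genotypes at Trav17. This single-copy segment near the 3′ end of the V array held 0.744%, 0.953% and 0.160% of Trav counts in WT Pre-Tx, against 8.28%, 6.59% and 5.65% in TCF-1 cKO Pre-Tx, from 13, 19 and 3 counts against 71, 67 and 59. All 3 TCF-1 cKO libraries lay above all 3 WT libraries, and the log2 difference was 3.44 ± 0.93 (adjusted p = 0.0344, edgeR's quasi-likelihood test with Benjamini-Hochberg adjustment). The call held without WT Pre-Tx replicate 2 and was lost without any 1 of the other 5 libraries (adjusted p = 0.0647 to 0.105), with log2 differences of 2.99 to 3.89 throughout. It was also lost, by a small margin, with the replicate number as a block (log2 3.69, adjusted p = 0.0514).

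Of 47 Trav segments tested for their share before transplant, 1 was higher and 1 lower in TCF-1 cKO, beside 14.1% of all genes. At an unadjusted p under 0.05 there were 9, beside 5690 of all 17021 genes. The lower one was Trav8n-2, at 0.683%, 1.01% and 1.05% in WT and 0%, 0.119% and 0% in TCF-1 cKO (adjusted p = 0.0440 in the same edgeR test). It passed the filter on low counts only through WT and rested on 1.21 counts over the whole TCF-1 cKO group. The call was lost without any 1 of the 6 libraries, at 0.0797 to 0.163, with the replicate block at 0.0856 and in DESeq2.

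Of the 4 other segments at this end of the locus, Trav21-dv12 and Trav19 were also higher in TCF-1 cKO Pre-Tx than in WT Pre-Tx in every library, without passing the test. Trav18, the nearest to Trav17, held 0% to 0.535% in WT Pre-Tx and 0% in all 3 TCF-1 cKO Pre-Tx libraries. Trav23 held 0% in 5 of these 6 libraries. Trav21-dv12, a segment shared with the delta locus, stood at 1.09%, 1.00% and 0.749% in WT Pre-Tx, against 4.78%, 4.13% and 4.79% in TCF-1 cKO Pre-Tx (log2 2.26 ± 0.81, adjusted p = 0.0792, edgeR's quasi-likelihood test with Benjamini-Hochberg adjustment). Trav19 stood at 0.744%, 0.401% and 0% in WT Pre-Tx, against 2.33%, 2.26% and 4.02% in TCF-1 cKO Pre-Tx (log2 2.88 ± 1.19, adjusted p = 0.115). Neither had a near-identical copy, and neither overlapped between the genotypes. Trav17, Trav18, Trav19, Trav21-dv12 and Trav23 are the last 5 members at the 3′ end, and together they held 2.58%, 2.61% and 1.44% of Trav counts in WT Pre-Tx, against 15.4%, 13.0% and 14.8% in TCF-1 cKO Pre-Tx. At day 7 they held 8.54%, 6.43% and 3.72% in WT and 9.57%, 10.2% and 10.8% in TCF-1 cKO. This group of 5 was chosen after its values were seen, and it carries no test.

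**Figure D4:**
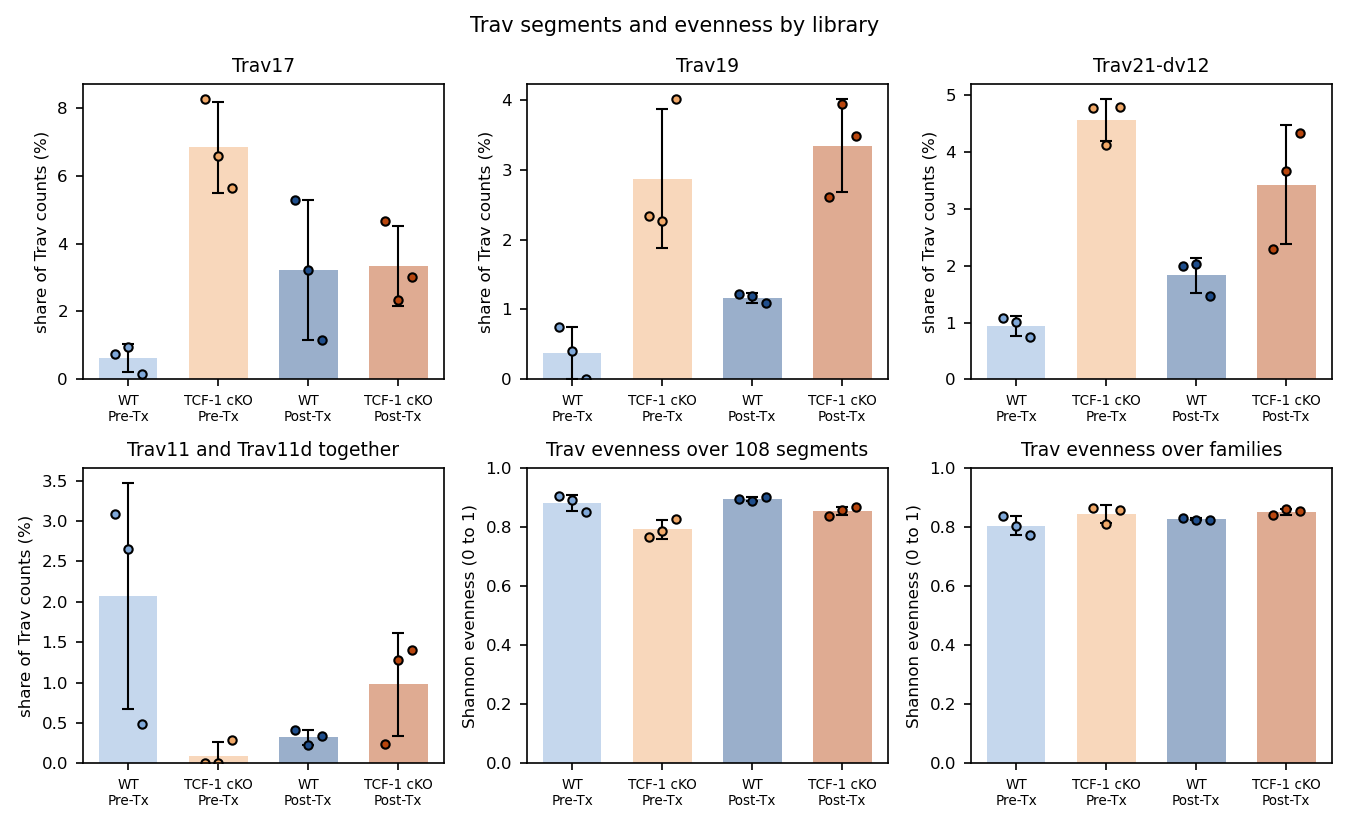
Shares of all Trav counts (%) of Trav17, Trav19, Trav21-dv12 and of Trav11 with Trav11d, and the evenness of the Trav locus over 108 segments and over families, by group, with a point for each library and bars for mean and SD (n = 3). Trav17 lies at 5.65% to 8.28% in TCF-1 cKO Pre-Tx, above WT Pre-Tx at 0.160% to 0.953%.

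Seen over the whole locus, TCF-1 cKO libraries held more of their Trav counts close to the joining segments. The 9 segments within 250 kb of the 3′ end of the array, counted from the end of the last member, held 7.28% ± 1.25 in WT Pre-Tx, 24.4% ± 1.98 in TCF-1 cKO Pre-Tx, 10.4% ± 1.74 in WT Post-Tx, against 17.9% ± 2.22 in TCF-1 cKO Post-Tx. Within 500 kb the 32 segments held 38.4%, 67.5%, 44.3% and 58.5% in the means. The mean distance of a Trav count from that end was 673 to 715 kb in WT Pre-Tx, 447 to 532 kb in TCF-1 cKO Pre-Tx, 636 to 645 kb in WT Post-Tx, against 513 to 580 kb in TCF-1 cKO Post-Tx. The genotypes did not overlap at either stage.

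The order of the 4 groups was the same with the 10 segments shared with the delta locus left out (704.8, 523.3, 652.9 and 570.5 kb in the means) and over the 38 segments without a near-identical copy (547.3, 351.1, 478.9 and 417.1 kb). The C57BL/6 alpha locus holds duplicated blocks of V segments, marked d and n in the symbols, most of which lie further from the joining segments. Segments without either letter held 47.3% of Trav counts in WT Pre-Tx, 70.8% in TCF-1 cKO Pre-Tx, 52.5% in WT Post-Tx, against 64.5% in TCF-1 cKO Post-Tx. Trdc, the delta constant region, stood at 8.41 to 11.02 counts per 100 of Trac in WT Pre-Tx, 15.6 to 40.1 in TCF-1 cKO Pre-Tx, 0.681 to 0.810 in WT Post-Tx, against 2.50 to 3.32 in TCF-1 cKO Post-Tx, and its part in the position of the counts was not tested. Distance was looked at after the shares had been seen, so these values are a description without a test.

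**Figure D5:**
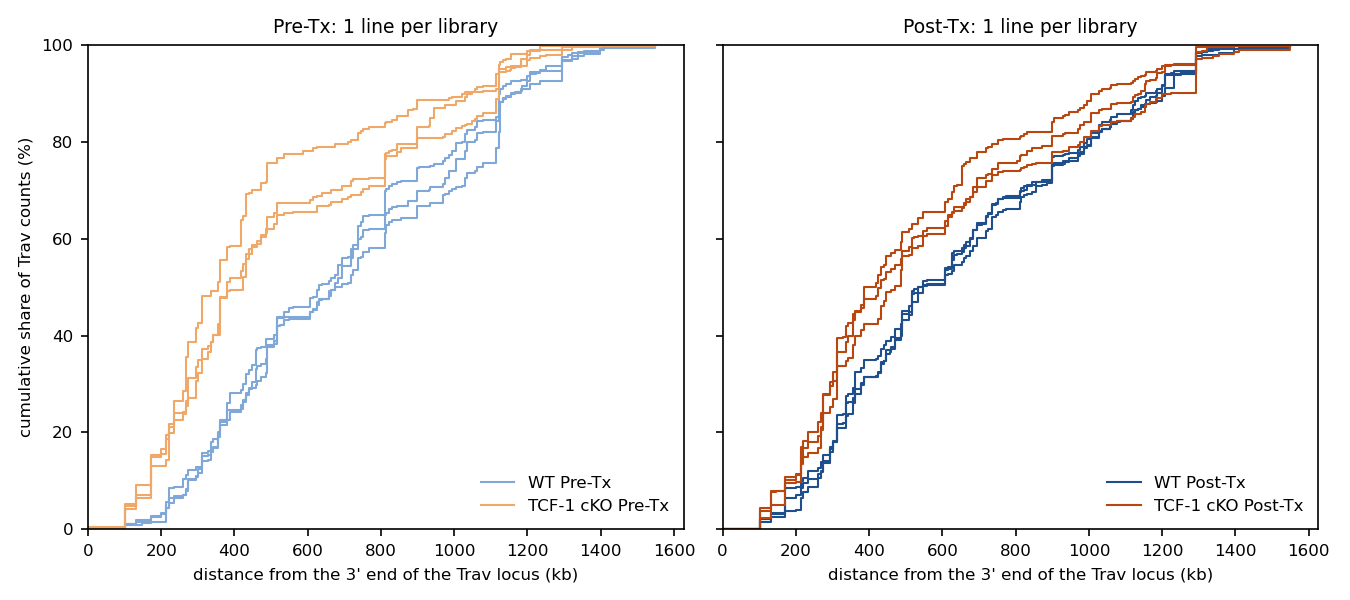
Cumulative share of Trav counts (%) against distance (kb) from the 3′ end of the V array, with 1 line per library, in a Pre-Tx and a Post-Tx panel. At 500 kb the group means are 67.5% against 38.4% before transplant and 58.5% against 44.3% after it, for TCF-1 cKO against WT.

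With transplant, Trav17 rose in WT and did not pass the test in TCF-1 cKO. WT Post-Tx held 5.28%, 3.22% and 1.16% and TCF-1 cKO Post-Tx 4.66%, 2.35% and 3.02%, so that the genotypes overlapped at day 7. The log2 change was 2.37 ± 0.74 in WT (adjusted p = 0.0297, edgeR's quasi-likelihood test with Benjamini-Hochberg adjustment), and the interaction was −3.40 ± 1.01 (adjusted p = 0.0223). The WT change was lost without WT Pre-Tx replicate 1 or 3 or WT Post-Tx replicate 1 or 2, at 0.0531 to 0.157, and the interaction without WT Post-Tx replicate 1 or TCF-1 cKO Post-Tx replicate 2, at 0.0755 and 0.0599. Trav17 was the 1 Trav segment called of 90 tested in WT, beside 21.9% of all genes.

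In TCF-1 cKO 10 of 90 tested Trav segments were higher and 3 lower after transplant, beside 26.6% of all genes. Of these 13, 8 have a near-identical copy and 8 had fewer than 3 counts over all 3 TCF-1 cKO Pre-Tx libraries, where a rise is from a level that these libraries hardly resolve. Trav6-3 held 0 counts in the 3 Pre-Tx libraries and 1.19%, 2.12% and 1.04% after transplant, which is at least 14.6-fold higher when the floor is set at 3 counts over the Pre-Tx group (adjusted p = 0.0108, edgeR's quasi-likelihood test with Benjamini-Hochberg adjustment), and it passed without any 1 of the 6 libraries. With 0 counts before transplant, Trav6-3 entered this test only through its counts in the other groups. It lies within 1 edit of Trav6d-3, and in WT it went from 2.99, 14 and 0 counts to 44.06, 103.31 and 145. Against the same floor Trav7n-6 was at least 13.2-fold, Trav9n-4 at least 10.4-fold, Trav9d-1 at least 5.67-fold and Trav1 at least 4.54-fold higher. Trav7n-6 did not rise in every library, at 3.97%, 0.785% and 0.00275%. Nor did Trav9n-4, with 0, 34.24 and 64.47 counts in TCF-1 cKO Post-Tx replicates 1 to 3, and Trav1 rested on 2, 37 and 4 counts there. The other calls upward were Trav7d-2, at 0.00722%, 0% and 1.63% before and 3.57%, 7.04% and 2.56% after (log2 2.98 ± 1.04, adjusted p = 0.0441), Trav14n-3, Trav8n-2 and the pair Trav6n-7 and Trav6d-7.

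The segments that fell in TCF-1 cKO were Trav12-2 and the identical pair Trav14d-1 and Trav14n-1, whose printed ends do not differ and which held the same estimated counts. Trav12-2 stood at 4.42%, 7.54% and 5.58% before and 0.466%, 2.004% and 1.71% after, without overlap, and fell by 2.06 ± 0.68 on the log2 scale (adjusted p = 0.0340, edgeR's quasi-likelihood test with Benjamini-Hochberg adjustment). Each of the pair stood at 0.995%, 4.95% and 5.63% before and 0.403%, 0.333% and 1.03% after, with overlap, and fell by 2.70 ± 0.79 (adjusted p = 0.0207). Leaving out 1 library kept the Trav12-2 call in 1 of 6 cases, with adjusted p from 0.0467 to 0.101, and the call of the pair in 2 of 6. Of the 13 Trav calls, Trav6-3 was the only one kept in all 6, and its rise was from 0 counts.

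At day 7 no Trav share passed between the genotypes. Of 83 tested, 0 were called by edgeR's quasi-likelihood test with Benjamini-Hochberg adjustment, beside 6.61% of all genes. At an unadjusted p under 0.05 there were 4, beside 6163 of all 19287 genes. DESeq2 called 3 higher in TCF-1 cKO (Trav13n-4, Trav19 and Trav5-4). Trav5-4 stood at 1.44%, 1.98% and 1.86% in WT Post-Tx, against 7.24%, 2.85% and 4.01% in TCF-1 cKO Post-Tx, without overlap (log2 1.41 ± 0.59, adjusted p = 0.117). Trav3-3, the largest Trav segment in TCF-1 cKO Post-Tx on average, stood at 2.73%, 3.58% and 5.43% in WT Post-Tx, against 7.22%, 6.79% and 6.02% in TCF-1 cKO Post-Tx, and did not pass (log2 0.77 ± 0.45, adjusted p = 0.241).

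Other Trav segments of at least 3% in a group mean were Trav7-4, Trav9-1, Trav13-1, Trav14-2, Trav14-3, Trav14d-3-dv8, Trav6-7-dv9, Trav16 and Trav13-4-dv7, with group means from 0.579% to 4.31%. Their replicates spread widely at these depths, as in Trav9-1 at 0.104%, 2.66% and 5.70% in WT Pre-Tx and Trav16 at 6.70%, 2.29% and 1.63% in TCF-1 cKO Pre-Tx. The leading Trav segment of a library was Trav3-3, Trav7-4 and Trav13d-1 in WT Pre-Tx replicates 1 to 3, and Trav17, Trav12-2 and Trav17 in TCF-1 cKO Pre-Tx. After transplant it was Trav17, Trav14d-3-dv8 and Trav3-3 in WT and Trav5-4, Trav7d-2 and Trav3-3 in TCF-1 cKO.

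Segments of invariant T cells (Trav11, Trav11d and Trav1) together held 3.60%, 2.91% and 0.588% of Trav counts in WT Pre-Tx, against 0%, 0% and 0.287% in TCF-1 cKO Pre-Tx, 0.554% to 0.920% in WT Post-Tx, and 0.327% to 2.32% in TCF-1 cKO Post-Tx. The genotypes did not overlap before transplant and overlapped at day 7. Trav11, from which V alpha 14 of natural killer T cells is made, held 3.09%, 2.66% and 0.481% in WT Pre-Tx, against 0%, 0% and 0.00116% in TCF-1 cKO Pre-Tx. Over the groups these were 116 counts against 0.01, at least 20.1-fold lower in TCF-1 cKO with the floor at 3 counts over that group. The segment was not among those that passed the filter on low counts in the test before transplant. Trav11d, whose printed end is that of Trav11, held 0% in all 3 WT Pre-Tx libraries, 0% to 0.286% in TCF-1 cKO Pre-Tx, 0% to 0.330% in WT Post-Tx, against 0.243% to 1.40% in TCF-1 cKO Post-Tx. Summed as 1 family, they stood at 2.08% ± 1.40, 0.0957% ± 0.166, 0.322% ± 0.0919 and 0.980% ± 0.639 in the 4 groups. The mean was lower after transplant in WT and higher in TCF-1 cKO, and the interaction on family sums passed (log2 5.93 ± 1.70, adjusted p = 0.0189, edgeR's quasi-likelihood test with Benjamini-Hochberg adjustment), although neither genotype's own change did (adjusted p = 0.0902 in WT and 0.0687 in TCF-1 cKO). Since the family had 0, 0 and 3.00 counts in TCF-1 cKO Pre-Tx, the size of this interaction depends on the prior count and is no measured fold. Trav1, the segment of mucosal-associated invariant T cells, held 0.515%, 0.251% and 0.107% in WT Pre-Tx, against 0% in all 3 TCF-1 cKO Pre-Tx libraries, where 3 counts over the group would be 0.103%. It stood at 0.146% to 0.587% in WT Post-Tx, against 0.0818% to 1.03% in TCF-1 cKO Post-Tx.

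Trav evenness over the 108 segments was 0.884 ± 0.0274 in WT Pre-Tx, 0.794 ± 0.0322 in TCF-1 cKO Pre-Tx, 0.896 ± 0.00610 in WT Post-Tx, against 0.856 ± 0.0151 in TCF-1 cKO Post-Tx, lower in TCF-1 cKO at both stages without overlap, whereas over families its mean was higher in TCF-1 cKO, at 0.805, 0.846, 0.829 and 0.853 in the same order. Effective numbers of segments were 48.6 ± 9.52, 30.3 ± 4.93, 50.6 ± 2.06 and 39.5 ± 4.33. Thinned to the same number of counts in each library, evenness over segments was 0.879, 0.794, 0.884 and 0.847, which leaves the order as it was. The direction of the genotype difference in mean Trav evenness thus depended on whether segments were counted singly or summed by family, and near-identical copies were not merged alone. For the beta locus, which has few families with several members, the TCF-1 cKO mean was the lower at both stages with segments and with families alike.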

How the data were processed

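The authors sequenced SMARTseq HT cDNA in Nextera XT libraries as paired ends and ran kallisto 0.46.2. The deposited values used here are the estimated counts that kallisto gave per transcript, not normalized by the authors. Deposited TPM values, which kallisto derived from those counts and effective lengths, entered only as an alternative. The authors' voom and limma results were not used. Transcripts were matched by identifier to GENCODE M21 on GRCm38 (116428 of 117497), while the submitters' notes name mm9 and these sources do not give the annotation release.

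Counts were summed per gene and rounded. Levels were tested with edgeR 4.0.16 in R 4.3.3 (TMM, filterByExpr, quasi-likelihood test, Benjamini-Hochberg adjustment over all genes tested). Shares used the same fit with the library's Trav or Trbv total as the offset of each member. Genotype comparisons used the 6 libraries of a stage, and transplant and interaction tests all 12. A segment was called at an adjusted p under 0.05. The standard error is the log2 fold change divided by the square root of F. The script was tested on simulated data. Alternatives were DESeq2 1.42.0, limma 3.58.1 voom, upper-quartile normalization, no filter on low counts, family sums, TPM, thinning, pseudogenes included, a replicate block and leaving out each library. Figures used matplotlib 3.10.9.

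The rule for members used no expression value, but this rule, the lists and the tests were set with earlier results of these data known. Named segments are Trbv of at least 5% and Trav of at least 3% in a group mean, the superantigen-linked, comparison and invariant T cell segments, up to 6 called segments in each direction of at least 1%, and the leading segment of each library. Others, such as Trbv14, Trbv23, Trbv29, Trav18 and Trav23, were named after their values were seen. Total counts were 17103415 to 49486745 per library, and floors cover counting error only. Intervals that assume independent molecules were not computed, since the reads carried no molecular identifiers.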

Additional observations from a re-analysis of the deposited data

Results flagged for a closer look

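The change of the Trbv15 share with transplant differed between the genotypes by 2.20 on the log2 scale, in the interaction test of the model over all 12 libraries. For Trav17 the same difference was −3.40, with WT the genotype whose share rose. For Trav9d-1 it was 7.67 (adjusted p = 0.0444, edgeR's quasi-likelihood test with Benjamini-Hochberg adjustment), but Trav9d-1 had 0 counts in all 3 TCF-1 cKO Pre-Tx libraries, so the size depends on the prior count and is no measured fold, and the call held in 1 of 12 fits with 1 library left out. Outside the members, Trav pseudogenes held 2.98 counts per 100 Trav V counts in the mean of TCF-1 cKO Post-Tx (1.49 to 5.71), above WT Post-Tx (0.533 to 1.38) with WT Pre-Tx at 1.08 to 5.31.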

How the results depend on the processing

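Of 413 refits of 41 single-segment calls, 220 kept the call, 193 lost it and 0 changed sign, and 160 of the lost calls came from leaving out 1 library. Counts of segments called moved as follows. Levels before transplant gave 5, and 8 without the filter, 16 with DESeq2, 13 with upper-quartile normalization, 8 with voom and 0 to 4 with 1 library left out. Levels after transplant gave 8, and 17, 24, 2, 13 and 0 to 16. Shares before transplant gave 2, with 1 on family sums and 0 to 2 with 1 library left out. Shares after transplant gave 1, with 3 without the filter, 7 with DESeq2 and 0 to 3 with 1 library left out. The WT transplant change gave 3, with 8 in DESeq2 and 1 to 3 with 1 library left out, the TCF-1 cKO change 19, with 7 on family sums and 6 to 10, and the interaction 3, with 5 in DESeq2 and 1 to 5. Reversals of differences without a test were as follows. Trbv evenness with transplant in WT (0.00315) was −0.00105 with pseudogenes and −0.00218 to 0.00838 with 1 library left out, and in TCF-1 cKO (−0.0273) it was 0.0204 on family sums. Trav evenness between the genotypes was 0.0408 before and 0.0248 after transplant on family sums, and its change in WT (0.0114) was −0.00372 to 0.0229 with 1 library left out. Per constant region count, log2 totals were −0.0860 and −0.0346 for the Trbv change with transplant in WT and TCF-1 cKO, −0.237 for the Trav change in WT and 0.0422 for Trav between the genotypes after transplant. With the replicate number as a block, the counts were 1 and 14 for levels before and after transplant and 0 and 3 for shares before and after, but correlations between residuals of same-numbered libraries ran from −0.306 to 0.279, so the numbers do not pair the libraries. Depth limits the TCF-1 cKO Pre-Tx Trav shares most, where 3 counts over the group are 0.103%. The causes of these shifts were not tested.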
